A study of Homo sapiens with 16 samples.

Results

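The matrix proteases described here were the 65 protein-coding genes of the count table whose GENCODE symbol was MMP, TIMP, ADAM, ADAMTS or ADAMTSL followed by a number. They were 65 of 34228 genes in the table, of which 18159 were protein coding. The set held 20 MMP genes, 4 TIMP genes, 18 ADAM genes, 18 ADAMTS genes and 5 ADAMTSL genes, and the rule used the symbol and no measured value, although the set was proposed with earlier results of these data known. RNA-Seq was carried out on 451Lu-R and 1205Lu-R, human melanoma cell lines made resistant to the BRAF inhibitor PLX4032 (vemurafenib) by culture in increasing amounts of the drug. 451Lu-R is labelled MITF high and AXL low, and 1205Lu-R MITF low and AXL high. Each line was treated for 24 hours with the vehicle DMSO or with 2.5 µM corin, a bivalent inhibitor of the CoREST complex that carries an HDAC inhibitor warhead and an LSD1 inhibitor warhead. There were 2 libraries in each of the 4 groups, so that 8 of the 16 samples of the series were used, and the other 8, which involved PLX4032, were not analysed here. Each group model is 1 resistant line, so that the comparisons concern these lines and not melanomas of either type. Nothing in the labels says whether the 2 libraries of a group came from separate cultures, so that p values measure the spread between these libraries, which may be technical.

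Matrix metalloproteinases (MMPs) are zinc-dependent endopeptidases that cleave collagens, other matrix proteins and surface proteins, and most are secreted as inactive proenzymes. Membrane-type MMPs are held at the cell surface, and MMP14 there activates proMMP2 together with TIMP2. TIMPs are the tissue inhibitors that block the MMP active site, and TIMP3 also blocks several ADAMs and ADAMTSs. ADAMs are membrane-anchored proteases that shed growth factors, cytokines and receptors, although some family members have no active protease domain. ADAMTSs are secreted proteases of proteoglycans, procollagens and other matrix proteins, and ADAMTS-like proteins share their accessory domains without the protease domain. In melanoma, MMP14 and MMP2 are known for their part in invasion through collagen.

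The libraries held 9516563 to 11797686 counts. Levels are given as counts or as CPM, which scales counts to a common library total, and per kb of exon wherever genes are compared with each other. Melanocytic genes (MITF, SOX10, PMEL and others) were at or above 1 CPM for 9 of 9 in 451Lu-R, with summed levels of 11789 to 13785 CPM. In 1205Lu-R the same list summed to between 33.3 and 46.1 CPM, and SOX10 and TYR were at 0 counts in both libraries of both groups, so that the melanocytic markers of that line were nearly absent. The AXL-high list summed to 15.5 and 15.9 CPM in 451Lu-R with DMSO and to 5074 and 5141 CPM in 1205Lu-R with DMSO. With corin it summed to 409 and 414 CPM in 451Lu-R and to 14845 and 14972 CPM in 1205Lu-R, although AXL itself went from 948 and 976 to 480 and 471 CPM in 1205Lu-R. The part of this list in the results below was not tested. The summed level of 8 fibroblast markers moved from 50.7 and 54.2 to 155 and 158 CPM in 451Lu-R and from 334 and 339 to 186 and 189 CPM in 1205Lu-R. COL3A1 was at 0 counts in each 451Lu-R library and in 1205Lu-R with DMSO, and LUM at 0 counts in 1205Lu-R. In 451Lu-R, however, COL1A1 went from 6 and 7 to 461 and 416 counts and LUM from 537 and 440 to 1245 and 1008 counts. In 1205Lu-R, PDGFRB of the same list went from 138 and 142 to 85.2 and 84.6 CPM. COL1A1 went there from 14 and 11 to 82 and 101 counts. The sum of 6 keratinocyte or epithelial markers moved from 45.5 and 42.5 to 81.4 and 80.5 CPM in 451Lu-R. In 1205Lu-R that sum moved from 138 and 133 to 193 and 181 CPM. The sum of 4 endothelial markers moved from 9.08 and 10.9 to 70.5 and 72.9 CPM in 451Lu-R and from 11.1 and 11.7 to 46.6 and 51.9 CPM in 1205Lu-R, and 5 immune markers summed to no more than 6.61 CPM in any library. The part of these lists in the results was not tested, and in bulk RNA a changed share of cells and a changed amount of RNA per cell cannot be told apart.

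The promoters of 6 genes are shown because these genes carry the results below: the membrane-type proteases MMP14, which fell, and MMP15, which rose, the inhibitor TIMP1, and 3 genes of the MMP cluster on chromosome 11, which moved in different directions. Each run is the 150 bases before the RefSeq start site (GRCh38.p14), 5′ to 3′ on the strand of the gene, with capitals marking a GC box (GGGCGG or CCGCCC), an E-box bound by ZEB and SNAI factors (CACCTG or CAGGTG) or a TATA box (TATAAA).
MMP14, chr14:22836435-22836584, plus strand: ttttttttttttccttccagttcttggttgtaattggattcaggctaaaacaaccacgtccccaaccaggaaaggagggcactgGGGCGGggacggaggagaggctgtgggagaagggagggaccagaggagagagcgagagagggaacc
MMP15, chr16:58025604-58025753, plus strand: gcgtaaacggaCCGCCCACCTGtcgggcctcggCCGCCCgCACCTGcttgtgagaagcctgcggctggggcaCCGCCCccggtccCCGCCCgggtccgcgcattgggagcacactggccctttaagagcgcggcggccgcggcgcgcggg
TIMP1, chrX:47582286-47582435, plus strand: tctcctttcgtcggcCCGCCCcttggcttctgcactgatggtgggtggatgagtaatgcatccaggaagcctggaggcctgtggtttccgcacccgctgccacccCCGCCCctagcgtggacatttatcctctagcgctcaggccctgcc
MMP10, chr11:102780629-102780778, minus strand: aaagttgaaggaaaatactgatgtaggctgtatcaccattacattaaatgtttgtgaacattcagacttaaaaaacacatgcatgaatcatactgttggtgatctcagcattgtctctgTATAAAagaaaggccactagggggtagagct
MMP20, chr11:102625333-102625482, minus strand: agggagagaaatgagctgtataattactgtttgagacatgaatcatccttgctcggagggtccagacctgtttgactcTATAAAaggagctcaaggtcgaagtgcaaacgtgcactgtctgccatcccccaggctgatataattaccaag
MMP8, chr11:102724955-102725104, minus strand: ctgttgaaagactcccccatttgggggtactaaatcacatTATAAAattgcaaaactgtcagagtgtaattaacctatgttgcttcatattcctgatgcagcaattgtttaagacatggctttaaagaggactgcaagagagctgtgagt
The MMP15 run held 4 GC boxes and 2 E-boxes, the first E-box sharing its opening base with the GC box before it, and 22 CG pairs. The MMP14 run held 1 GC box, no E-box and 4 CG pairs, and the TIMP1 run 2 GC boxes and 8 CG pairs. MMP10 and MMP8 had no CG pair and MMP20 had 3, against a median of 7 over all promoters of the table. Each of the 3 held the letters TATAAA, but at different distances from the RefSeq start. Their first base was at -31 in MMP10, -72 in MMP20 and -110 in MMP8.

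RefSeq promoters (250 bases before to 50 after the start) were found for 39 of the 65 genes, with 40 promoters in all. TATAAA, read on the gene's strand, was in 7 of these 40 (17.5%), against 7.33% of 35116 promoters, and 4 of the 7 belonged to MMP7, MMP8, MMP10 and MMP20 of the chromosome 11 cluster. GC boxes on either strand were in 28 of the 40 (70%), against 45% of all. E-boxes were in 8 (20%), against 20.6%, and an AP-1 site (TGAGTCA or TGACTCA) was in 1, that of MMP7, against 4.95% of all. These matches are a description of letters and not of bound sites. The promoters of MMP1, MMP2, MMP3, MMP9, MMP13, TIMP2, ADAMTS1 and ADAMTS15 were among the 26 genes without an entry.

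Most of the detected members were higher after corin, in both lines. In 451Lu-R, 29 of the 38 members tested rose (76.3%) and 6 fell, at a false discovery rate (FDR) under 0.05 in edgeR's quasi-likelihood test. Over all 14530 genes tested, 41.3% rose and 38.6% fell. In 1205Lu-R, 34 of 44 rose (77.3%) and 8 fell, against 40.4% and 37.8% of 14563 genes. At a fold change of 4 or more with an FDR under 0.001, 14 members rose and 1 fell in 451Lu-R, where 12.4% and 2.72% of all genes did, and 18 rose and none fell in 1205Lu-R, where 11.3% and 1.43% did. Part of these counts comes from the expression filter, since 12 members of the 451Lu-R fit and 14 of the 1205Lu-R fit were tested only because the corin libraries were high. Of the 26 members that the DMSO libraries of 451Lu-R alone would have kept, 17 rose, 6 fell and 3 did not pass, with a median log2 fold change of 0.64. Of the 30 in 1205Lu-R, 21 rose, 8 fell and 1 did not pass, with a median of 0.61. All genes kept in the same way had medians of -0.11 and -0.10, and 35.2% and 34.4% of them rose while 43.9% and 43.4% fell.

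Many members had no counts before treatment. With DMSO, 25 of the 65 were at 0 counts in both libraries of 451Lu-R and 11 in 1205Lu-R, and with corin 3 were at 0 in each line. Members with a mean of at least 1 CPM numbered 27 and 38 in 451Lu-R without and with corin, and 32 and 44 in 1205Lu-R. The same counts over all genes are not given here, so that this gain is not shown to be particular to the members. In all, 15 members stayed under 1 CPM in every group and were tested in no comparison. These were ADAM7, ADAM8, ADAM18, ADAM20, ADAM29, ADAM32, ADAM33, ADAMTS10, ADAMTS18, ADAMTS19, ADAMTSL2, MMP7, MMP12, MMP19 and MMP21, of which 6 had 3 counts or fewer in each of the 8 libraries.

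**Figure D1:**
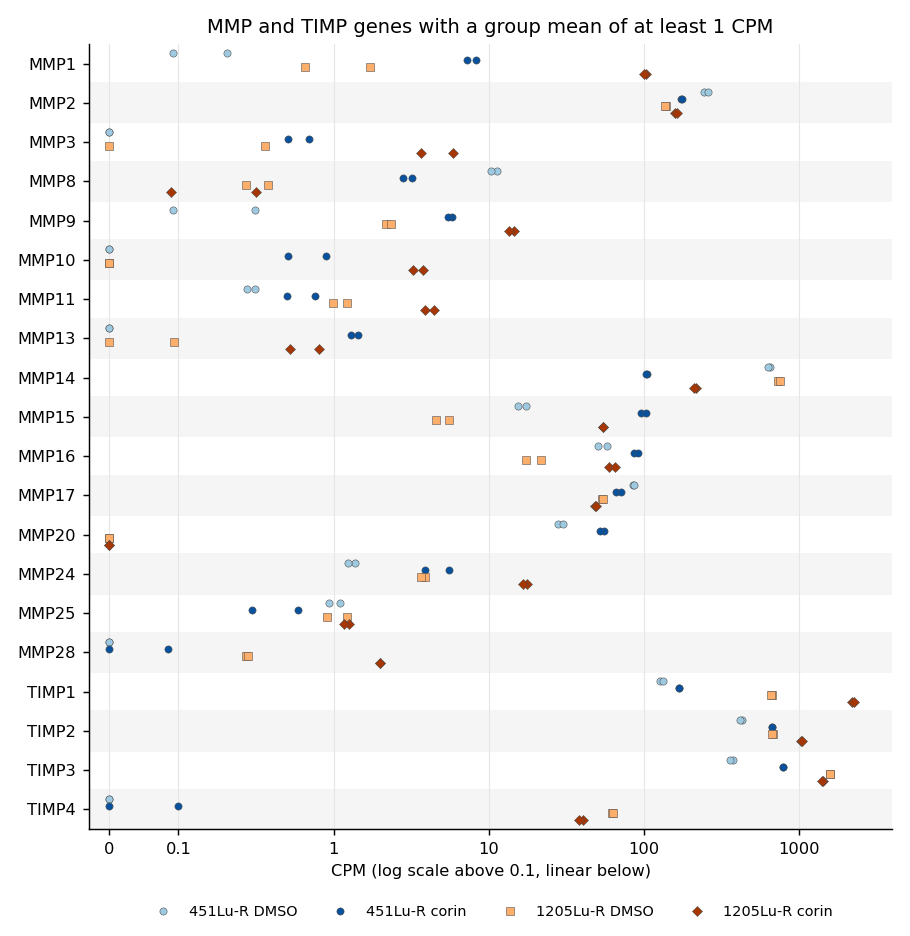
Levels of the 20 MMP and TIMP genes with a group mean of at least 1 CPM, in each of 8 libraries. The horizontal axis is CPM, logarithmic above 0.1 and linear below; each point is a library, with DMSO in pale and corin in dark colours. MMP14 lies between 630 and 759 CPM with DMSO and between 103 and 215 CPM with corin, while MMP1, MMP9, MMP15 and MMP24 lie to the right with corin.

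Among the membrane-type MMPs, MMP14 fell in both lines while MMP15, MMP16 and MMP24 rose. MMP14 (ENSG00000157227.13), the collagenase of the cell surface, was at 650 and 630 CPM in the DMSO libraries of 451Lu-R and at 105 and 103 CPM with corin. Its levels in 1205Lu-R were 737 and 759 CPM with DMSO and 215 and 211 CPM with corin. The groups lay far apart in both lines, and MMP14 was the only member to fall past the 4-fold limit in 451Lu-R. The log2 fold change was -2.52 ± 0.03 (SE; FDR 6.89e-23) in 451Lu-R and -1.88 ± 0.03 (FDR 2.15e-22) in 1205Lu-R. MMP15 (ENSG00000102996.5), a close relative of MMP14, went the other way, from 17.3 and 15.5 to 95.4 and 103 CPM in 451Lu-R. In 1205Lu-R it went from 4.61 and 5.56 to 54.5 and 54.8 CPM. Its log2 fold changes were 2.69 ± 0.08 (FDR 3.56e-17) and 3.35 ± 0.10 (FDR 1.17e-17), with no overlap between groups. MMP16, which also activates proMMP2, rose by 0.82 ± 0.06 in 451Lu-R (FDR 2.67e-10) and by 1.60 ± 0.09 in 1205Lu-R (FDR 1.69e-13) on the log2 scale. MMP24, a protease best known from the nervous system, had 15 and 12 counts with DMSO against 65 and 39 with corin in 451Lu-R, and 43 and 39 against 168 and 184 in 1205Lu-R. It rose in both lines, by 1.94 ± 0.30 (FDR 7.55e-06) and 2.10 ± 0.15 (FDR 3.07e-11). Its exons overlap MMP24OS on the other strand, which held 383 to 577 counts, and the strand setting of the counting is not given in the sources used here.

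MMP17, which is tied to the membrane by a lipid anchor, fell slightly in both lines (-0.23 ± 0.05, FDR 0.000582, in 451Lu-R and -0.22 ± 0.06, FDR 0.00193, in 1205Lu-R). MMP25, the other lipid-anchored enzyme, was at 13 counts or fewer in every library and did not pass in 1205Lu-R (log2 fold change 0.12 ± 0.42, FDR 0.805), the only line in which it was tested.

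The collagenase MMP1 rose in both lines, and the gelatinases MMP9 and MMP2 differed from each other. MMP1 (ENSG00000196611.5) had 1 and 2 counts in 451Lu-R with DMSO against 85 and 83 with corin. In 1205Lu-R it had 19 and 7 counts with DMSO against 986 and 1119 with corin, or 104 and 101 CPM. Every corin library was above every DMSO library of its line. From the summed counts of 451Lu-R the ratio was 52.8 (exact 95% interval 17.8 to 259, counting error only; FDR 9.5e-11), and in 1205Lu-R the log2 fold change was 6.33 ± 0.13 (FDR 1.05e-20). Leaving out a single DMSO library moved these values. The log2 fold change was 5.71 in 451Lu-R and 6.32 without DMSO library 2, and in 1205Lu-R it was 7.17 without DMSO library 1. MMP9 (ENSG00000100985.7), the gelatinase with type IV collagen among its substrates, had 1 and 3 counts against 68 and 55 in 451Lu-R, a ratio of 29.0 (11 to 108; FDR 2.37e-09). In 1205Lu-R it rose from 24 and 25 to 139 and 151 counts (log2 fold change 2.56 ± 0.18, FDR 1.99e-11). The 451Lu-R value, 4.87 on the log2 scale, was 4.23 without DMSO library 1 and 5.87 without DMSO library 2. SLC12A5-AS1, which overlaps MMP9 on the other strand, went from 6 and 7 to 58 and 54 counts in 451Lu-R but held no more than 5 counts in 1205Lu-R, and reads of the pair cannot be told apart without strand.

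MMP2 (ENSG00000087245.13), the gelatinase that MMP14 activates, was at 245 and 258 CPM with DMSO against 174 and 176 CPM with corin in 451Lu-R. Its levels in 1205Lu-R were 140 and 136 CPM with DMSO and 159 and 164 CPM with corin. It fell in 451Lu-R (-0.42 ± 0.03, FDR 5.2e-10) and rose in 1205Lu-R (0.15 ± 0.04, FDR 0.00072), although the latter did not pass with DESeq2 (adjusted p = 0.0727). The direction thus differed between the lines, with a difference of 0.53 ± 0.05 on the log2 scale (FDR 1.95e-08).

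The stromelysins appeared from very low levels. MMP10 (ENSG00000166670.10), a stromelysin that cleaves proteoglycans and other proMMPs, was at 0 counts in the DMSO libraries of both lines. With corin it had 36 and 36 counts in 1205Lu-R, at least 12.7-fold higher when 3 counts per library are taken as the floor (FDR 2.05e-08), and 6 and 9 counts in 451Lu-R, where it was not tested. MMP3, the founding stromelysin, had 4 and 0 counts in 1205Lu-R with DMSO against 56 and 41 with corin (log2 fold change 4.52 ± 0.54, FDR 1.24e-07). That change was 8.60 without DMSO library 1 and 3.59 without DMSO library 2, and the call held in each case. MMP11, a furin-activated member, rose in 1205Lu-R from 11 and 13 to 37 and 49 counts (1.83 ± 0.31, FDR 1.79e-05). MMP28, an epidermal protease, had 3 and 3 counts with DMSO against 19 and 22 with corin in 1205Lu-R (ratio 7.18, interval 3.03 to 20.7, FDR 4.44e-05), and at most 1 count in 451Lu-R.

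Of the 20 MMPs, 8 lie within 435 kb of chromosome 11 (chr11:102520508-102955732, GENCODE 44 on hg38), all read from the minus strand, in the order MMP7, MMP20, MMP8, MMP10, MMP1, MMP3, MMP12 and MMP13. In 451Lu-R, MMP20, MMP1 and MMP13 rose and MMP8 fell, and the other 4 were not tested. In 1205Lu-R, MMP10, MMP1 and MMP3 rose and the other 5 were not tested. These 3 were tested in 1205Lu-R only because the corin libraries were high, as were MMP1 and MMP13 in 451Lu-R. Their direction was thus largely set by the filter. The DMSO libraries of 451Lu-R alone would have kept 2 of the 4, of which 1 rose and 1 fell. Of all genes kept in that way, 35.2% rose and 43.9% fell. MMP20 (enamelysin, a protease of tooth enamel; ENSG00000137674.4) had 305 and 290 counts with DMSO in 451Lu-R and 649 and 524 with corin. It rose by 0.99 ± 0.07 on the log2 scale (FDR 1.88e-10) in that line and was at 0 counts in all 4 libraries of 1205Lu-R. MMP8 (the neutrophil collagenase; ENSG00000118113.12), the next gene along, fell in 451Lu-R from 124 and 100 to 33 and 32 counts (-1.76 ± 0.19, FDR 3.89e-08). It had 4 counts or fewer in each library of 1205Lu-R. MMP13, a collagenase of cartilage, was at 0 counts in 451Lu-R with DMSO and at 17 and 13 with corin, at least 4.68-fold higher (FDR 8.51e-06), and went from 0 and 1 to 5 and 9 counts in 1205Lu-R, too few to be tested. MMP1 was the most abundant gene of the cluster in 1205Lu-R with corin and MMP20 in 451Lu-R, per kb of exon. The cluster thus held genes that rose and a gene that fell within the same line.

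**Figure D2:**
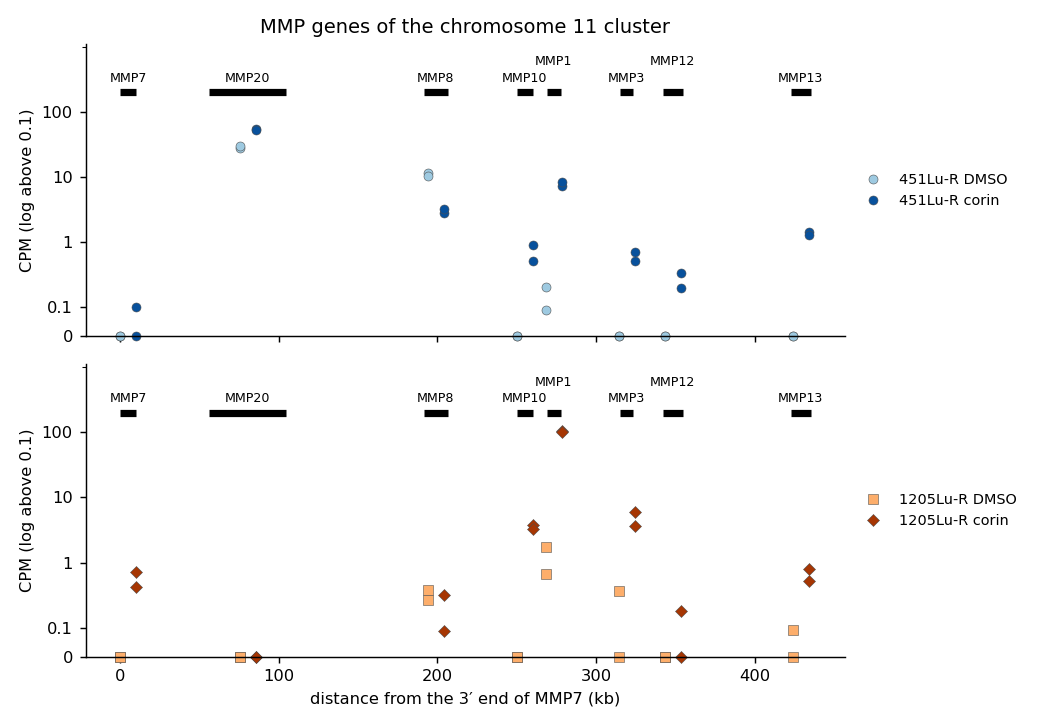
Levels of the 8 MMP genes of the chromosome 11 cluster in 451Lu-R (upper panel) and 1205Lu-R (lower panel). The horizontal axis is distance in kb, black bars are genes, points are libraries, and the vertical axis is CPM, logarithmic above 0.1 and linear below. MMP20 and MMP8 carry signal in 451Lu-R and almost none in 1205Lu-R, and MMP1 is the highest gene of 1205Lu-R with corin at 101 and 104 CPM.

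The TIMPs were among the most abundant members, and their summed level rose. TIMP1 (ENSG00000102265.12), a secreted inhibitor of most MMPs, was at 128 and 132 CPM with DMSO against 169 and 168 CPM with corin in 451Lu-R. Its levels in 1205Lu-R were 669 and 659 CPM with DMSO and 2207 and 2272 CPM with corin. The log2 fold changes were 0.47 ± 0.04 (FDR 2.83e-10) and 1.68 ± 0.02 (FDR 7.05e-25), which differed by 1.17 ± 0.06 (FDR 6.91e-13). TIMP2 (ENSG00000035862.12), the partner of MMP14 in proMMP2 activation, was at 428 and 415 CPM against 672 and 666 CPM in 451Lu-R. Its levels in 1205Lu-R were 684 and 671 CPM against 1031 and 1053 CPM. It rose in both lines, by 0.76 ± 0.02 (FDR 8.63e-17) and by 0.55 ± 0.02 (FDR 1.71e-15). TIMP3 (ENSG00000100234.11), which binds to the matrix, was at 373 and 357 CPM with DMSO against 787 and 793 CPM with corin in 451Lu-R. Its levels in 1205Lu-R were 1578 and 1588 CPM with DMSO and 1420 and 1416 CPM with corin. It rose in 451Lu-R (1.21 ± 0.02, FDR 1.08e-19) and fell in 1205Lu-R (-0.23 ± 0.01, FDR 8.02e-13), and the difference was -1.48 ± 0.03 (FDR 5.04e-20). TIMP4 (ENSG00000157150.5), the member of narrowest tissue range, had at most 1 count in each library of 451Lu-R. In 1205Lu-R it had 694 and 672 counts with DMSO against 383 and 424 with corin, and it fell (-0.76 ± 0.06, FDR 1.87e-10).

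On a scale that allows genes to be added, the balance between the families moved. The summed MMP level was 237 and 237 CPM per kb of exon with DMSO against 136 and 139 with corin in 451Lu-R, and 209 and 212 against 166 and 164 in 1205Lu-R. The summed TIMP level was 239 and 236 CPM per kb against 396 and 396 in 451Lu-R, and 969 and 962 against 2035 and 2080 in 1205Lu-R. The ratio of the TIMP to the MMP sum therefore went from 1.01 and 0.997 to 2.91 and 2.85 in 451Lu-R, and from 4.64 and 4.53 to 12.3 and 12.7 in 1205Lu-R. Libraries of the same group differed far less than the groups, but these sums were not tested, and they are RNA levels and not protein amounts. MMP14 made up 59.3% and 57.6% of the MMP sum of 451Lu-R with DMSO against 16.7% and 16.0% with corin. In 1205Lu-R its share went from 76.4% and 77.3% to 28.1% and 27.9%, while that of MMP1 went from 0.3% and 0.113% to 22.8% and 22.4%. In 451Lu-R with corin the order per kb was MMP2 with 37.0 and 37.5, MMP15 with 22.6 and 24.4, MMP14 with 22.7 and 22.2, and MMP20 with 21.5 and 20.5 CPM per kb, and the libraries of MMP15 and MMP14 overlapped. In 1205Lu-R with corin MMP14 stayed the highest MMP, at 46.6 and 45.7 CPM per kb, ahead of MMP1 at 37.8 and 36.8 and MMP2 at 33.9 and 34.7. TIMP1 made up 47.8% and 47.4% of the TIMP sum of 1205Lu-R with DMSO against 75% and 75.5% with corin.

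**Figure D3:**
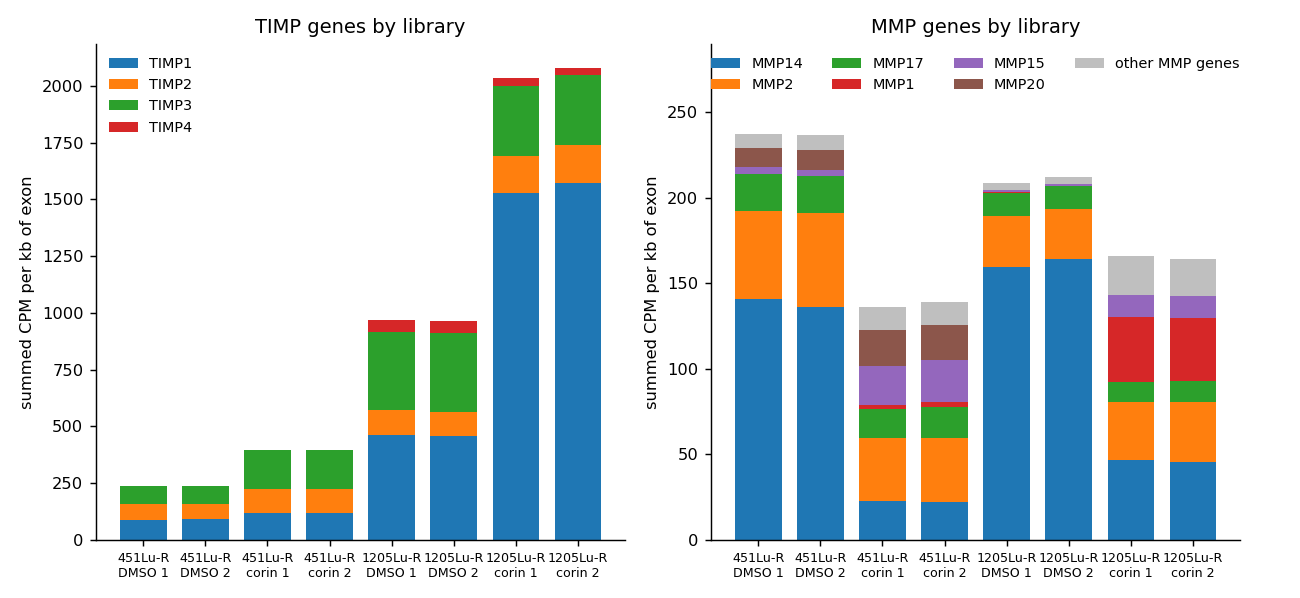
Summed levels of the TIMP genes (left) and the MMP genes (right) in each library, in CPM per kb of exon, with each bar divided by gene. The MMP bars go from 237 to 136 and 139 in 451Lu-R with corin as the MMP14 segment shrinks, and the TIMP bars of 1205Lu-R go from 969 and 962 to 2035 and 2080.

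The ADAM family held its overall level, with a summed 63.3 to 70.4 CPM per kb over the 8 libraries, while single members moved. ADAM10 (ENSG00000137845.15), the sheddase of Notch and E-cadherin, was at 289 and 291 CPM with DMSO against 330 and 338 CPM with corin in 451Lu-R. Its levels in 1205Lu-R were 190 and 194 CPM against 185 and 196 CPM, so that the groups overlapped. It rose in 451Lu-R (0.30 ± 0.03, FDR 2.49e-09), and its value in 1205Lu-R, -0.08 ± 0.04 with an FDR of 0.0461, was lost under 6 of the alternatives tried. ADAM17 (ENSG00000151694.14), the sheddase of TNF and of EGF receptor ligands, was at 46.8 and 45.0 CPM against 61.7 and 63.3 CPM in 451Lu-R. Its levels in 1205Lu-R were 39.3 and 38.4 CPM against 90.5 and 88.8 CPM. It rose in both lines, by 0.54 ± 0.06 (FDR 1.24e-07) and by 1.13 ± 0.05 (FDR 2.12e-14), and the rise was larger in 1205Lu-R (difference 0.55 ± 0.08, FDR 3.9e-06). ADAM9 and ADAM15, widely expressed family members, fell in both lines. ADAM9 changed by -0.09 ± 0.04 (FDR 0.0422) and -0.58 ± 0.03 (FDR 6.15e-13), and ADAM15 by -0.59 ± 0.05 (FDR 2.56e-09) and -0.16 ± 0.05 (FDR 0.0111).

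The zinc-binding motif HExxHxxGxxH of an active metalloprotease, where x is any residue, was found in the annotated proteins of 11 of the 18 ADAMs and was not found in ADAM7, ADAM11, ADAM18, ADAM22, ADAM23, ADAM29 and ADAM32. Of the latter, ADAM11, ADAM22 and ADAM23, which are known in neurons, were expressed, and all 3 passed the test as higher with corin in both lines, ADAM23 in 451Lu-R with overlapping libraries. Over all genes tested, 41.3% rose in 451Lu-R and 40.4% in 1205Lu-R. In 1205Lu-R the DMSO libraries alone would have kept 2 of the 3, since ADAM11 was tested there only because the corin libraries were high. ADAM22 (ENSG00000008277.14), a receptor of LGI1 at synapses, went from 134 and 107 to 566 and 452 counts in 451Lu-R and from 47 and 27 to 450 and 425 counts in 1205Lu-R. Its log2 fold changes were 2.09 ± 0.09 (FDR 3.2e-14) and 3.56 ± 0.16 (FDR 4.95e-15), with no overlap between groups. ADAM11 had 48 and 45 counts against 121 and 73 in 451Lu-R (1.07 ± 0.20, FDR 5.49e-05), and 6 and 10 against 36 and 41 in 1205Lu-R (2.25 ± 0.36, FDR 8.29e-06). ADAM23 was at 86.6 and 89.9 CPM against 89.4 and 87.9 CPM in 451Lu-R (0.11 ± 0.05, FDR 0.0411) and rose by 0.50 ± 0.08 in 1205Lu-R (FDR 5.27e-06). Of the motif-bearing ADAMs, 3 of 5 tested rose and 2 fell in 451Lu-R, and 4 of 8 rose and 3 fell in 1205Lu-R (50% and 37.5%, against 40.4% and 37.8% of all genes). Among them ADAM19 (ENSG00000135074.15), a sheddase of neuregulins, went from 109 and 124 to 431 and 339 counts in 451Lu-R (1.74 ± 0.11, FDR 8.49e-12) and from 607 and 577 to 707 and 826 counts in 1205Lu-R (0.37 ± 0.05, FDR 1.14e-06). CYFIP2 overlaps its exons on the other strand and moved from 131 and 101 to 3131 and 2732 counts in 451Lu-R and from 176 and 184 to 2011 and 2387 in 1205Lu-R, and the part of its reads in the ADAM19 counts was not tested. ADAM28, a lymphocyte ADAM, reached 11 counts in each corin library of 1205Lu-R from 1 and 0 (ratio 23.1, interval 3.74 to 954, FDR 0.000149). Its log2 fold change of 4.15 was 6.47 without DMSO library 1 and 3.33 without DMSO library 2.

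No ADAMTS gene that was tested fell in either line. Of 12 tested in 451Lu-R, 10 rose, and of 14 tested in 1205Lu-R, 14 rose. Over all genes tested, 41.3% and 40.4% rose and 38.6% and 37.8% fell. Only 5 and 9 of these ADAMTS genes would have been kept by the DMSO libraries alone. Of those, 3 and 9 rose, against 35.2% and 34.4% of all genes kept in that way. The summed level of the family was 5.96 and 6.06 CPM per kb against 17.8 and 19.2 in 451Lu-R, and 12.7 and 13.2 against 36.2 and 34.9 in 1205Lu-R. It was thus far below the MMP and TIMP sums throughout.

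Among the hyalectanases, which cleave aggrecan and versican, 4 of 5 tested rose in 451Lu-R, as did 6 of 6 in 1205Lu-R. Of these, 3 and 4 would have been kept by the DMSO libraries alone, of which 2 and 4 rose, against 35.2% and 34.4% of all genes kept in that way. ADAMTS1 (ENSG00000154734.15), the most abundant ADAMTS per kb in 3 of the 4 groups, went from 182 and 172 to 676 and 661 counts in 451Lu-R and from 93 and 104 to 845 and 903 counts in 1205Lu-R. Its log2 fold changes were 1.93 ± 0.09 (FDR 9.54e-14) and 3.15 ± 0.09 (FDR 1.48e-18). ADAMTS15 (ENSG00000166106.3) was at 0 counts in 451Lu-R with DMSO and at 75 and 57 with corin, at least 20.6-fold higher (FDR 4.66e-10). In 1205Lu-R it was present before treatment, with 123 and 98 counts, and rose to 265 and 307 (1.37 ± 0.11, FDR 2.17e-10). ADAMTS5 was at 0 counts and then at 20 and 19 in 451Lu-R, at least 6.14-fold higher (FDR 1.77e-06), and went from 0 and 1 to 15 and 19 counts in 1205Lu-R (ratio 35.7, interval 6 to 1453, FDR 8.68e-06). ADAMTS8 had 1 and 0 counts against 43 and 37 in 1205Lu-R (ratio 84.1, interval 14.7 to 3363, FDR 2.32e-08) and 0 and 0 against 6 and 9 in 451Lu-R, where it was not tested. In 1205Lu-R the log2 fold change of ADAMTS5, 4.77, was 3.90 and 7.10 without DMSO libraries 1 and 2, and that of ADAMTS8, 6.01, was 8.32 and 5.18. ADAMTS9 rose by 0.69 ± 0.08 (FDR 1.29e-07) and 1.20 ± 0.17 (FDR 1.64e-06). ADAMTS4 was at 12 to 44 counts, rose in 1205Lu-R (0.66 ± 0.28, FDR 0.0346) and did not pass in 451Lu-R (0.58 ± 0.40, FDR 0.189). In the protein sequences, ADAMTS1, ADAMTS4, ADAMTS9 and ADAMTS15 carried HExxHxxNxxH in place of HExxHxxGxxH, and of the 18 ADAMTSs only ADAMTS8 matched neither.

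The procollagen N-propeptidases trim the amino end of fibrillar procollagens. Both members tested in 451Lu-R and 2 of the 3 in 1205Lu-R passed the filter only through the corin libraries, so that their direction was largely set by the filter. ADAMTS2 (ENSG00000087116.16) had 2 and 1 counts against 20 and 33 in 451Lu-R (ratio 16.7, interval 5.40 to 83.4, FDR 4.96e-06) and 1 and 2 against 12 and 13 in 1205Lu-R (ratio 8.76, interval 2.67 to 45.3, FDR 0.000323). ADAMTS3 (ENSG00000156140.10) had 1 and 4 counts against 23 and 22 in 451Lu-R (3.12 ± 0.54, FDR 2.92e-05) and 95 and 95 against 144 and 146 in 1205Lu-R (0.61 ± 0.13, FDR 0.00031). The value in 451Lu-R was 2.38 without DMSO library 1 and 4.42 without DMSO library 2. ADAMTS14 had 0 and 3 counts against 38 and 39 in 1205Lu-R (ratio 27.0, interval 8.89 to 134, FDR 1.91e-07), and 0 and 0 against 6 and 5 in 451Lu-R. Its log2 fold change of 4.57 was 3.60 and 8.28 without DMSO libraries 1 and 2.

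Of the remaining ADAMTSs that were tested, all but ADAMTS13 rose, where 41.3% of all genes rose in 451Lu-R and 40.4% in 1205Lu-R. ADAMTS6, ADAMTS7 and ADAMTS16 in 451Lu-R and ADAMTS7 in 1205Lu-R were tested only because the corin libraries were high. Their direction was thus largely set by the filter. ADAMTS7 (ENSG00000136378.15), which cleaves the cartilage protein COMP, was at 0 counts in 451Lu-R with DMSO and at 30 and 22 with corin, at least 8.10-fold higher (FDR 3.08e-07). In 1205Lu-R it had 1 and 5 counts against 50 and 53 (4.05 ± 0.44, FDR 2.32e-08), a value that was 3.30 without DMSO library 1 and 5.54 without DMSO library 2. ADAMTS12, which shares that substrate, rose in 1205Lu-R from 407 and 423 to 546 and 653 counts (0.53 ± 0.06, FDR 1.69e-07) and had 11 counts or fewer in 451Lu-R. ADAMTS6 was at 0 counts against 27 and 25 in 451Lu-R, at least 8.18-fold higher (FDR 2.9e-07), and at 44 and 45 against 65 and 79 in 1205Lu-R (0.69 ± 0.19, FDR 0.00231; adjusted p = 0.0802 with DESeq2). ADAMTS16 (ENSG00000145536.15) had 11 and 9 counts against 148 and 123 in 451Lu-R (3.76 ± 0.23, FDR 6.92e-12), and 207 and 218 against 291 and 359 in 1205Lu-R (0.61 ± 0.09, FDR 2.29e-06). ADAMTS17 rose from 60 and 50 to 138 and 115 counts (1.22 ± 0.15, FDR 5.77e-07) and from 18 and 18 to 77 and 85 counts (2.16 ± 0.23, FDR 2.24e-08). ADAMTS13, the protease of von Willebrand factor, was at 16 and 8 counts with corin against 17 and 16 with DMSO in 451Lu-R (-0.45 ± 0.40, FDR 0.313). ADAMTS18 was too low to be tested, and went from 10 and 6 to 2 and 1 counts in 451Lu-R (ratio of DMSO to corin 5.65, interval 1.62 to 30.3).

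Of the ADAMTS-like genes, ADAMTSL1 (ENSG00000178031.17) was detected in 1 group only. It was at 0 counts in 451Lu-R with DMSO and in all 4 libraries of 1205Lu-R, and at 20 and 14 counts in 451Lu-R with corin, at least 5.29-fold higher than with DMSO (FDR 4.37e-06). ADAMTSL4, which binds fibrillin, had 2 and 0 counts against 55 and 30 in 451Lu-R (ratio 40.1, interval 10.8 to 336, FDR 1.23e-07) and 4 and 2 against 43 and 32 in 1205Lu-R (3.60 ± 0.48, FDR 5.79e-07). Its log2 fold change in 451Lu-R, 5.25, was 8.38 and 4.42 without DMSO libraries 1 and 2. MCL1 overlaps its exons on the other strand and held 1586 to 4651 counts. ADAMTSL3 rose in 451Lu-R (1.26 ± 0.34, FDR 0.00207), and ADAMTSL5 fell in 1205Lu-R (-0.58 ± 0.17, FDR 0.00469).

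**Figure D4:**
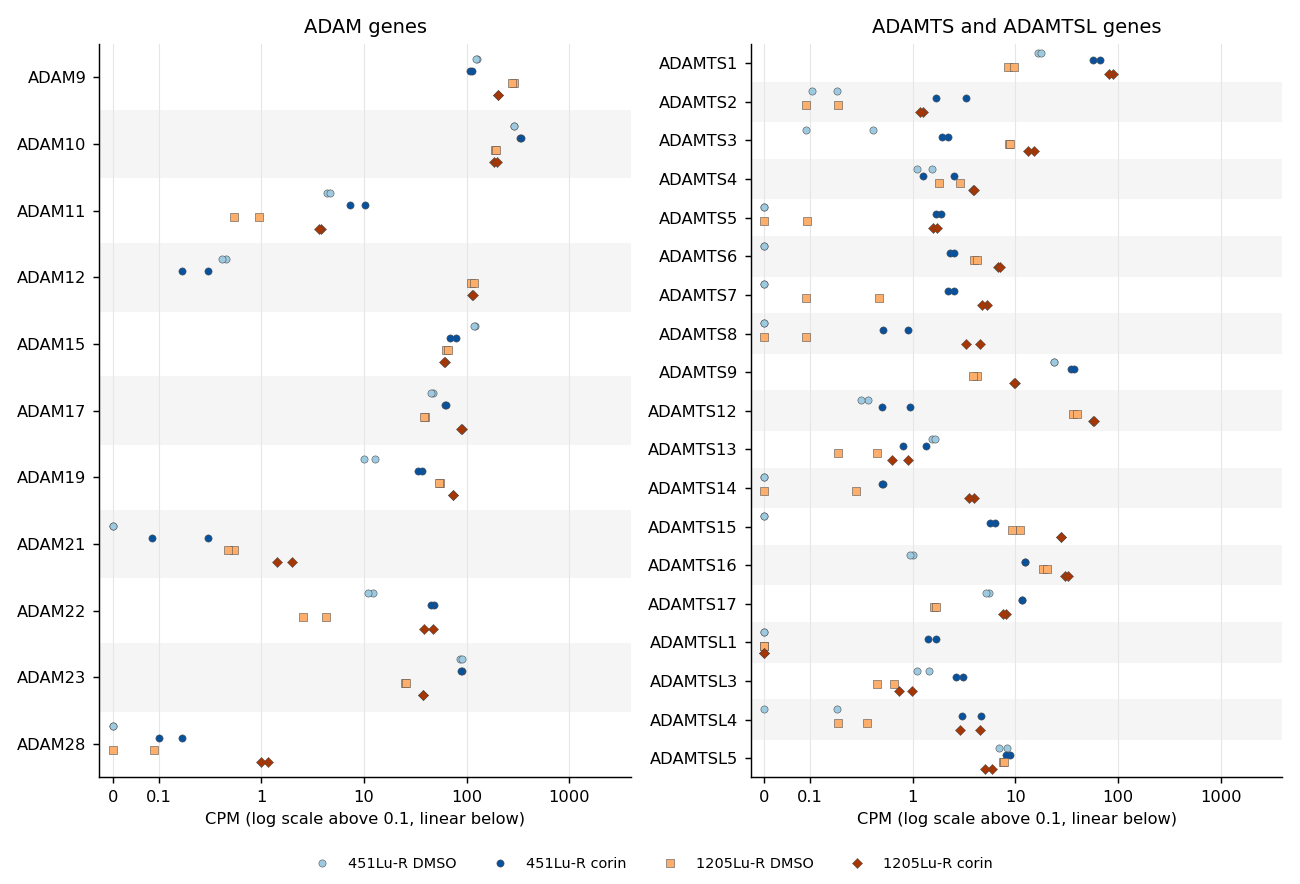
Levels of the 11 ADAM genes (left) and the 19 ADAMTS and ADAMTSL genes (right) with a group mean of at least 1 CPM, in each library. The horizontal axis is CPM, logarithmic above 0.1 and linear below, and each point is a library. ADAMTS5, ADAMTS6, ADAMTS7, ADAMTS15 and ADAMTSL1 sit at 0 in 451Lu-R with DMSO and between 1.40 and 6.36 CPM with corin.

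Before treatment the lines differed in the members about as often as in other genes. With DMSO, 21 of the 50 members tested (42%) were higher in 1205Lu-R than in 451Lu-R and 15 (30%) were lower, against 38.2% and 37.2% of all 16062 genes. Part of the higher count comes from the filter. The DMSO libraries of 451Lu-R alone would have kept 28 members, of which 9 were higher and 15 lower in 1205Lu-R. Their median log2 difference was -0.64. Of all genes kept in that way, 37.2% were higher and 44.4% lower, with a median of -0.11. All 4 TIMPs were higher in 1205Lu-R. TIMP4 was at 0 counts in 451Lu-R and at 694 and 672 in 1205Lu-R, at least 215-fold higher (FDR 1.08e-19), and the log2 differences were 2.48 ± 0.05 for TIMP1 (FDR 2.14e-20), 2.24 ± 0.02 for TIMP3 (FDR 2e-26) and 0.81 ± 0.03 for TIMP2 (FDR 1.82e-16). ADAM12 (ENSG00000148848.14), a sheddase of HB-EGF found in mesenchymal cells, had 1226 and 1248 counts in 1205Lu-R against 5 and 4 in 451Lu-R (8.11 ± 0.13, FDR 6.27e-23). With corin it had 1082 and 1299 counts in 1205Lu-R (-0.06 ± 0.04, FDR 0.219). ADAMTS12 had 407 and 423 counts against 4 and 3 (6.89 ± 0.19, FDR 1.59e-18), ADAMTS16 was higher by 4.44 ± 0.18 (FDR 1.75e-15) and ADAMTS3 by 5.22 ± 0.35 (FDR 9.76e-12). The ADAMTS3 value was 4.49 without DMSO library 1 of 451Lu-R and 6.52 without its DMSO library 2. ADAMTS15 and ADAMTS6, at 0 counts in 451Lu-R, were at least 34.7-fold (FDR 4.66e-13) and 14.0-fold (FDR 1.2e-09) higher in 1205Lu-R, and ADAM19 was higher by 2.39 ± 0.09 (FDR 2.34e-16).

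MMP20 was at least 105-fold higher in 451Lu-R than in 1205Lu-R (FDR 3.4e-16), and MMP8, its neighbour, was also lower in 1205Lu-R (-4.90 ± 0.33 on the log2 scale, FDR 1.08e-11). ADAMTS9 was at 23.9 and 23.6 CPM in 451Lu-R against 4.25 and 3.86 CPM in 1205Lu-R (-2.42 ± 0.13, FDR 1.05e-13), and ADAM11, ADAM22 and ADAM23 were lower in 1205Lu-R, with log2 differences from -2.47 to -1.65. MMP14 differed little, with 0.35 ± 0.02 more in 1205Lu-R (FDR 6.9e-12), and MMP2 was lower there (-0.74 ± 0.04, FDR 3.32e-14). MMP1 and MMP9 were higher in 1205Lu-R, with 19 and 7 counts against 1 and 2 (ratio 8.22, interval 2.52 to 42.4, FDR 0.000216) and 24 and 25 against 1 and 3 (ratio 11.6, interval 4.26 to 44.3, FDR 9.95e-07). On the log2 scale MMP1 was 3.06 and, without 1205Lu-R DMSO library 1, 2.20, or, without 451Lu-R DMSO library 2, 3.66. MMP9 was 3.58 and, without 451Lu-R DMSO libraries 1 and 2 in turn, 2.94 and 4.57. ADAM17 was not called between the lines (-0.12 ± 0.06, FDR 0.108).

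The size of the response was compared between the lines in a fit over all 8 libraries. Of 50 members tested, 13 responded with a higher log2 change in 1205Lu-R and 11 with a lower, against 22.6% and 27.1% of all genes. TIMP1, ADAM17, ADAM22, ADAMTS1, MMP15 and MMP16 rose more in 1205Lu-R. TIMP3, ADAM19, ADAMTS3, ADAMTS15, ADAMTS16 and MMP9 rose more in 451Lu-R or rose there and fell in 1205Lu-R. For ADAMTS15, ADAMTS16, ADAMTS3 and ADAM19 the 451Lu-R level with corin stayed below the 1205Lu-R level with DMSO (5.70 and 6.36 against 9.23 and 11.1 CPM for ADAMTS15; 12.3 and 12.5 against 18.7 and 20.5 CPM for ADAMTS16; 1.95 and 2.20 against 8.58 and 8.95 CPM for ADAMTS3; 36.5 and 33.9 against 54.9 and 54.3 CPM for ADAM19). For MMP1 the difference did not pass (0.58 ± 1.10, FDR 0.715), and its counts in 451Lu-R with DMSO were 1 and 2.

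**Figure D5:**
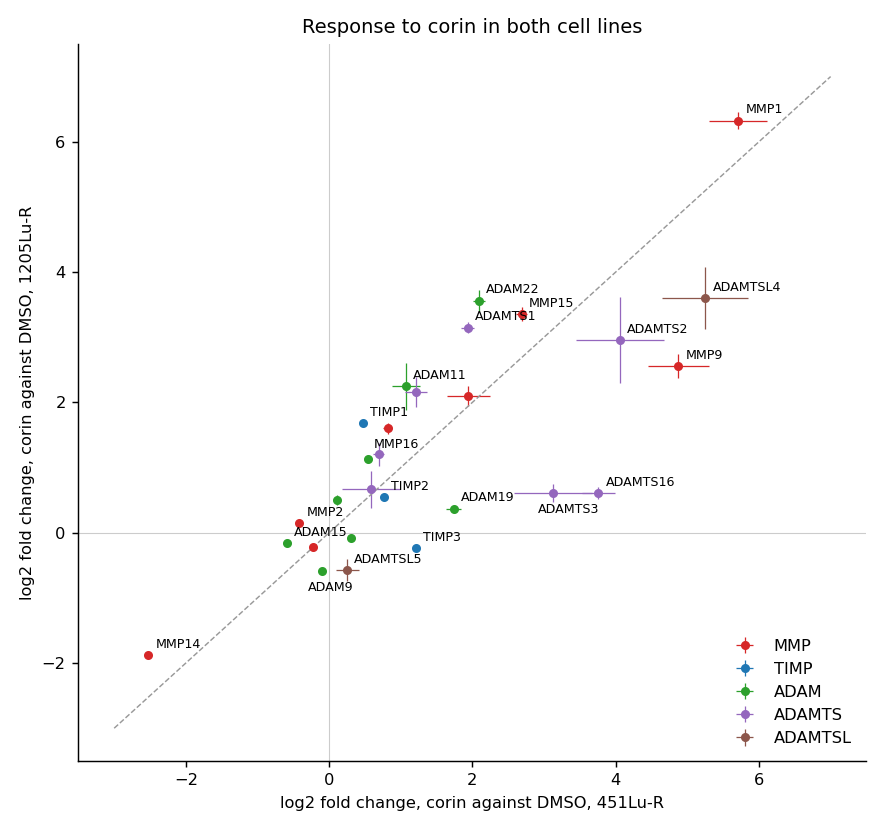
Log2 fold change with corin in 451Lu-R (horizontal) against 1205Lu-R (vertical) for 28 members tested in both lines without a group at 0 counts; bars are standard errors, colours are families, and the dashed line marks equal change. MMP14 is at -2.52 and -1.88, MMP1 at 5.71 and 6.33, and TIMP3 at 1.21 and -0.23.

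Genes that act with these proteases were counted from lists of other genes, to be read against the shares over all genes (41.3% higher and 38.6% lower for 451Lu-R; 40.4% higher and 37.8% lower for 1205Lu-R). Of 11 genes of plasminogen activation, which yields plasmin, an activator of several proMMPs, 8 were tested in each line and all 8 rose in each. PLAUR, the receptor of urokinase, rose by 2.24 ± 0.12 in 451Lu-R (FDR 1.09e-12), and PLAT, the tissue-type activator, by 1.19 ± 0.03 in 1205Lu-R (FDR 1.45e-20). Among 19 other regulators, 12 of 17 tested rose and 3 fell in 451Lu-R, and 9 of 16 rose and 5 fell in 1205Lu-R. TFPI2, a protease inhibitor of the matrix, had 2 and 2 counts against 117 and 119 in 451Lu-R (5.82 ± 0.34, FDR 4.93e-12) and 294 and 301 against 6265 and 7288 in 1205Lu-R (4.51 ± 0.04, FDR 2.57e-26). Some plasminogen genes in each line, and some regulators in 451Lu-R with TFPI2 among them, were tested only because the corin libraries were high. Their direction was thus largely set by the filter. RECK, a membrane-bound inhibitor of MMPs, rose in 1205Lu-R (1.41 ± 0.10, FDR 3.51e-11). Of 9 partners of ADAM10 and ADAM17, 4 rose and 3 fell in 451Lu-R, while of 8 tested in 1205Lu-R 2 rose and 6 fell. The tetraspanin gene TSPAN33 rose in both lines (1.64 ± 0.05, FDR 2.11e-16, and 3.10 ± 0.08, FDR 2.12e-19), while TSPAN5 rose in 451Lu-R (2.83 ± 0.15, FDR 5.2e-13) and fell in 1205Lu-R (-0.27 ± 0.04, FDR 8.02e-06). TSPAN10 fell in 451Lu-R (-1.64 ± 0.03, FDR 4.37e-20) and rose in 1205Lu-R (1.68 ± 0.28, FDR 1.27e-05). TSPAN14 fell in 451Lu-R (-0.26 ± 0.03, FDR 8.74e-07) and in 1205Lu-R from 1804 and 1755 to 267 and 313 counts (-2.62 ± 0.05, FDR 2.44e-21).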

How the data were processed

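RNA-Seq of 8 libraries (4 groups of 2) was analysed. The deposited values are expected counts per gene: per the labels and the study's methods, the authors trimmed reads with trimmomatic and quantified them with salmon against GENCODE 32, with versions not given in the sources used here. The authors' tables on PLX4032 with corin hold only their own log2 fold changes and adjusted p values and were not used. Expected counts were rounded to whole numbers; 35 of the 65 members had a value that was not whole within 0.001. Names, positions and exon lengths came from GENCODE 44 (hg38), which matched 34052 of 34228 genes. ADAM2, ADAM30, ADAMTS20, MMP26 and MMP27 were not analysed here, and ADAM5 is not annotated as protein coding. Totals of 9516563 to 11797686 counts per library set the precision. Intervals (exact Clopper-Pearson, 95%) and the floor of 3 counts per library cover counting error only.

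edgeR 4.0.16 in R 4.3.3 (filterByExpr with a minimum of 10 counts, TMM, quasi-likelihood test, 2-sided) was fitted to the 4 libraries of each line, and to all 8 for the contrast between lines and the difference in response. P values were adjusted by Benjamini-Hochberg over all genes tested, and errors of fold changes are standard errors computed from the F statistic. The steps were tested on simulated data. Named members were the TIMPs, MMP2, MMP14, ADAM10, ADAM17, up to 30 members past a fold change of 4 at an FDR under 0.001 whose mean in a group reached 1 CPM, and 6 further members for the line contrast. Other members are named to account for them. The values of 1 gene of the pathway lists are not reported here. The members, the pathway lists and the rules were chosen with earlier results of these data known. The zinc motif was searched in the annotated GENCODE 44 translations, since no RefSeq protein table was used here. Alternatives were RLE size factors, library size only, DESeq2 1.42.0, other filters, a replicate block, 1 fit over 8 libraries, a stricter call and leaving out each library. Replicate numbers did not pair libraries (correlations of deviations -0.0306 and 0.0175).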

Additional observations from a re-analysis of the deposited data

Results flagged for a closer look

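The response to corin differed between the lines for 24 of the 50 members tested, by the test of the difference itself (edgeR quasi-likelihood, adjusted over all genes, which calls 22.6% of genes higher and 27.1% lower). Values are the log2 response of 1205Lu-R minus that of 451Lu-R. Among inhibitors and MMPs they were 1.17 for TIMP1 (FDR 6.91e-13), -0.26 for TIMP2 (FDR 4.32e-06), -1.48 for TIMP3 (FDR 5.04e-20), 0.60 for MMP14 (FDR 3.15e-09), 0.63 for MMP15 (FDR 0.00169), 0.74 for MMP16 (FDR 1.46e-05), 0.53 for MMP2 (FDR 1.95e-08) and -2.35 for MMP9 (FDR 0.00155). TIMP3 and MMP2 moved in opposite directions in the 2 lines, MMP14 fell less in 1205Lu-R, and TIMP2 rose less there. Without 451Lu-R DMSO libraries 1 and 2 in turn, MMP9 was at -1.71 and -3.34.

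Among the ADAMs the differences were -0.53 for ADAM9 (FDR 7.1e-08), -0.42 for ADAM10 (FDR 2.01e-07), 1.14 for ADAM11 (FDR 0.035), 0.39 for ADAM15 (FDR 0.000228), 0.55 for ADAM17 (FDR 3.9e-06), -1.40 for ADAM19 (FDR 1.52e-09), 1.43 for ADAM22 (FDR 1.81e-05) and 0.35 for ADAM23 (FDR 0.00132). Among the ADAMTSs they were 1.18 for ADAMTS1 (FDR 7.72e-07), -3.19 for ADAMTS16 (FDR 2.99e-10), 0.91 for ADAMTS17 (FDR 0.0107), -2.55 for ADAMTS3 (FDR 0.000494) and 0.47 for ADAMTS9 (FDR 0.0366), and ADAMTSL5 was at -0.86 (FDR 0.00452). ADAMTS15 was at -7.70 (FDR 7.68e-08) and ADAMTS6 at -7.04 (FDR 5.47e-06), sizes that depend on how the fit treats the 0 counts of 451Lu-R with DMSO and are no bound. With DESeq2 the differences of ADAM11, ADAMTS17 and ADAMTS9 did not pass, and leaving out single libraries ended that of ADAM11 in 5 cases and that of ADAMTS9 in 6. Scaling by library size only ended the difference of TIMP2. ADAMTS3 was at -1.81 and -3.84 without 451Lu-R DMSO libraries 1 and 2.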

How the results depend on the processing

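The number of members past the threshold stayed within 1.5 times of 35 (451Lu-R), 42 (1205Lu-R), 36 (lines with DMSO) and 24 (difference in response) under each alternative except the stricter call of a fold change of 4 or more at an FDR under 0.001, which left 15, 18, 16 and 4. Leaving out 1 library gave 33 to 35, 39 to 42, 33 to 37 and 22 to 23, with the lone library of a group assumed to vary like the others. DESeq2 gave 35, 36, 36 and 20. With the replicate number as a block the counts were 35, 42, 35 and 24. The block ended the line difference of MMP28 (FDR 0.0802), as did leaving out 451Lu-R DMSO library 1 (log2 difference 4.65). Of the values of named members under the alternatives, 1703 kept direction and side of the threshold, 29 no longer passed, 6 newly passed and none reversed.

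ADAM10 in 1205Lu-R, at -0.08, was lost under 6 alternatives, among them library size only (-0.01) and without corin library 1 (-0.04, FDR 0.352). DESeq2 lost MMP2 and ADAMTS6 in 1205Lu-R and the differences in response of ADAM11, ADAMTS17 and ADAMTS9 (adjusted p = 0.114, 0.0821 and 0.150). Leaving out single libraries lost ADAM11 in 5 cases and ADAMTS9 in 6. The line difference of ADAMTS7, at 1 and 5 counts in 1205Lu-R with DMSO, was 4.66 and fell to 3.17 without 1205Lu-R DMSO library 2, where it was lost. It was also lost without 451Lu-R DMSO libraries 1 and 2 in turn, although its size was 4.65 and 4.67. Library size only moved the median difference in response over all genes to 0.20 from -0.01 and ended that of TIMP2 (-0.04, FDR 0.358). Members at a few counts with DMSO are limited by depth, and the causes of these changes were not tested.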

Other observations

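Other proteases and substrates also moved with corin, and the counts below stand beside the shares over all genes, 41.3% higher and 38.6% lower for 451Lu-R against 40.4% higher and 37.8% lower for 1205Lu-R. Of 9 ligands that ADAMs shed, 5 of 6 tested rose in 451Lu-R, and 5 of 6 rose and 1 fell in 1205Lu-R. AREG, an EGF receptor ligand released by ADAM17, had 0 and 1 counts with DMSO against 131 and 133 with corin in 451Lu-R (FDR 1.99e-12), and 0 and 0 against 117 and 128 in 1205Lu-R (FDR 4.27e-13). HBEGF, a ligand of the same receptor, rose (log2 scale) by 1.02 ± 0.12 in 451Lu-R (FDR 1.84e-07) and by 2.99 ± 0.10 in 1205Lu-R (FDR 3.29e-17), and TGFA by 1.37 ± 0.09 (FDR 4.33e-11) and 2.98 ± 0.10 (FDR 2.24e-17). Among 10 matrix substrates of ADAMTSs, 7 of 9 tested rose and 1 fell in 451Lu-R, and 5 of 7 rose and 2 fell in 1205Lu-R. ACAN, the aggrecan gene, went from 0 and 0 to 115 and 129 counts in 1205Lu-R (FDR 4.19e-13), while VCAN, the versican gene, fell there from 2580 and 2453 to 829 and 971 counts (-1.48 ± 0.04, FDR 2.61e-19). In 451Lu-R the brain proteoglycan gene NCAN went from 0 and 1 to 144 and 124 counts (FDR 9.15e-13). Of the substrates that rose, NCAN, FBN1, FBN2, COMP and THBS1 in 451Lu-R were tested only because the corin libraries were high. The same held for ACAN in 1205Lu-R, and among the ligands for AREG in both lines, NRG1 in 451Lu-R and BTC in 1205Lu-R. Their direction was thus largely set by the filter.

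Cathepsins and their cystatin inhibitors went both ways, with 9 of 16 tested rising and 4 falling in 451Lu-R and 9 of 14 rising and 4 falling in 1205Lu-R. CTSB, a lysosomal cysteine protease, rose in 451Lu-R from 525 and 529 to 1133 and 1146 CPM (1.21 ± 0.02, FDR 8.25e-21). Of 16 genes of other cell surface and matrix enzymes, not all of them proteases, 5 and 6 were tested. HPSE, which cuts heparan sulphate, rose by 2.85 ± 0.13 in 451Lu-R (FDR 8.59e-14) and by 3.42 ± 0.16 in 1205Lu-R (FDR 2.17e-14). TLL2, a relative of BMP1, had 6 and 3 counts against 261 and 200 in 451Lu-R (5.65 ± 0.24, FDR 1.94e-14) and 7 and 10 against 52 and 75 in 1205Lu-R (2.88 ± 0.31, FDR 2.98e-08). TLL2 in both lines, the cystatin gene CST2 in 451Lu-R, and CTSW and DPP4 in 1205Lu-R were tested only because the corin libraries were high. Their direction was thus largely set by the filter. BMP1 itself fell in 451Lu-R (-0.44 ± 0.09, FDR 9.73e-05).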
